A study of Mus musculus with 18 samples.

Results

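Solute carriers are membrane proteins that move amino acids, ions, metals, fatty acids, vitamins and nucleotides across the plasma membrane and the membranes of organelles. Their genes carry the prefix Slc followed by a family number, and members of a family share ancestry and often substrates. In muscle they supply creatine and taurine to the fibres, move lactate in and out, and exchange sodium, calcium and protons across membranes. Here 100 genes named by that prefix were followed in whole gastrocnemius, the calf muscle, whose fibres in mice are mostly fast. They were taken from 231 such genes on the array, out of 13255 genes with a probeset of their own (a probeset is the group of array probes read as 1 value). Mitochondrial carriers (Slc25a), facilitative glucose transporters (Slc2a) and the iron transporters Slc40a1 and Slc11a2 were left out. A gene was kept if its brightest probeset averaged at least 6.5 log2 intensity units over all 18 arrays. The genes were thus chosen by symbol and by this mean signal over all arrays, which does not use the ages separately. For 7 of them the mean of at least 1 age lay under the limit, so they passed it only through the ages where they are higher. The 4 of these that were called were Slc15a5, Slc7a1 and Slc8a1, low at 2 months, and Slc5a3, low at 25 months. The limit favours the direction of their calls, and they are given as descriptions.

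The muscle came from both legs of male C57BL/6 mice aged 2, 11 or 25 months, with 6 biological replicates and 6 arrays per age. No mouse was treated, and all groups share strain and sex. Whole muscle also holds nerve, vessels, connective tissue and fat, so fewer cells of a type and less RNA per cell cannot be told apart. The labels do not say that muscles of several mice were pooled.

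The tissue label was checked with fibre genes: Acta1, Ckm, Mb and Tnnt3, the 4 of 8 listed fibre markers measured here, averaged 13.04 to 14.07 log2 units. From 2 to 11 months Mb, the oxygen store of oxidative fibres, rose by 0.29 log2 units (adjusted p = 0.00835) and Tnnt3, of fast fibres, fell by 0.16 (adjusted p = 0.0464). Acta1 and Ckm did not pass (adjusted p = 0.0912 and 0.890). Of probesets averaging at least 6.5 log2 units 26.5% were called in that comparison. At 25 against 2 months Mb and Tnnt3 did not pass either (adjusted p = 0.0839 and 0.246). The median signal per array was 97.6 to 101 intensity units. The spread of signal within an array, as the interquartile range of its log2 values, ran from 2.03 to 2.35 at 2 months, from 2.25 to 2.45 at 11 months and from 2.13 to 2.37 at 25 months. Bright probesets as a whole sat higher at 11 than at 2 months. The median change was 0.06 log2 units over the 8103 probesets at or above the level of 6.5, against -0.02 over all 15300. Counts over all 100 carriers are therefore given beside both backgrounds, and counts by class beside that of the bright probesets.

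The genes nearest the level limit were Slc4a3 (6.54), Slc38a9 (6.54) and Slc39a14 (6.51) inside it and Slc26a11 (6.47), Slc10a7 (6.40) and Slc9a3r1 (6.40) outside it. Of the 100 genes, 3 encode no carrier: Slc9a3r2 is a scaffold protein that binds sodium-proton exchangers, Slc4a1ap is an adaptor named for its binding to a bicarbonate exchanger, and Slc7a6os is named for its place on the strand opposite a carrier gene. A further 131 carrier genes lay below the limit. Among these, 1 was higher and 8 were lower at 11 than at 2 months, and 5 were higher and 4 lower at 25 than at 2 months. From 11 to 25 months 0 passed. Of all probesets 19.1%, 17.4% and 0.15% were called in these comparisons. Those shares include the probesets at or above the limit, called at 26.5%, 26.1% and 0.234%. They are therefore not matched to the level of these dim genes, and probesets below the limit were called at smaller shares than these. The higher gene at 11 months was Slc24a2, a sodium-calcium-potassium exchanger (log2 change 0.24, adjusted p = 0.0167).

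From 2 to 11 months 23 of the 100 genes, Slc15a5 and Slc7a1 with their low 2-month means included, rose and 2 fell, by limma's moderated test with adjustment over all 15300 probesets at a threshold of 0.05. That is 25 genes, where the same rule called 19.1% of all probesets and 26.5% of those at or above the level limit. In the upward direction the backgrounds were 11.9% and 19.9%, and downward they were 7.18% and 6.6%. The share of carriers called was therefore near that of other probesets of their brightness. An unadjusted p under 0.05 was found for 41 genes, against 35.8% and 43.5%. The median change was 0.08 log2 units over the 100 genes, and 71 had a value above 0. After a further quantile normalization of the arrays the split was 18 higher and 6 lower.

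Between 25 and 2 months 18 genes were higher and 10 lower. The higher genes include Slc15a5 and Slc8a1 with their low 2-month means, and the lower ones Slc5a3 with its low 25-month mean. The level limit favours the direction of those calls. The count is 28 of 100, against 17.4% of all probesets and 26.1% of those at or above the limit. The upward backgrounds were 10.5% and 17.1%, and the downward ones 6.95% and 8.97%. The median change over the 100 genes was -0.001 log2 units, against -0.01 over all probesets and 0.03 over those at or above the limit. An unadjusted p under 0.05 was found for 41 genes, against 30% and 41.1%. Quantile normalization gave 15 higher and 13 lower. These 2 comparisons share the 2-month arrays, so their results are not independent of each other.

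From 11 to 25 months 0 of the 100 genes passed, where 0.15% of all probesets did (0.0588% higher and 0.0915% lower) and 0.234% of those at or above the limit (0.074% higher and 0.16% lower). An unadjusted p under 0.05 was found for 25 of them, against 10.4% of all probesets and 12.9% of those at or above the limit. In this comparison the one-way test with Tukey that the study's text names called 8, all lower, against 3.01% of all probesets and 4.16% of those at or above the limit. Values below 0 were found for 71 of the 100, with a median of -0.06 log2 units against 0.002 over all probesets and -0.02 over those at or above the limit. Over the 3 ages together, limma's moderated F statistic called 30 of the 100, against 19.2% of all probesets and 28.3% of those at or above the limit.

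**Figure D1:**
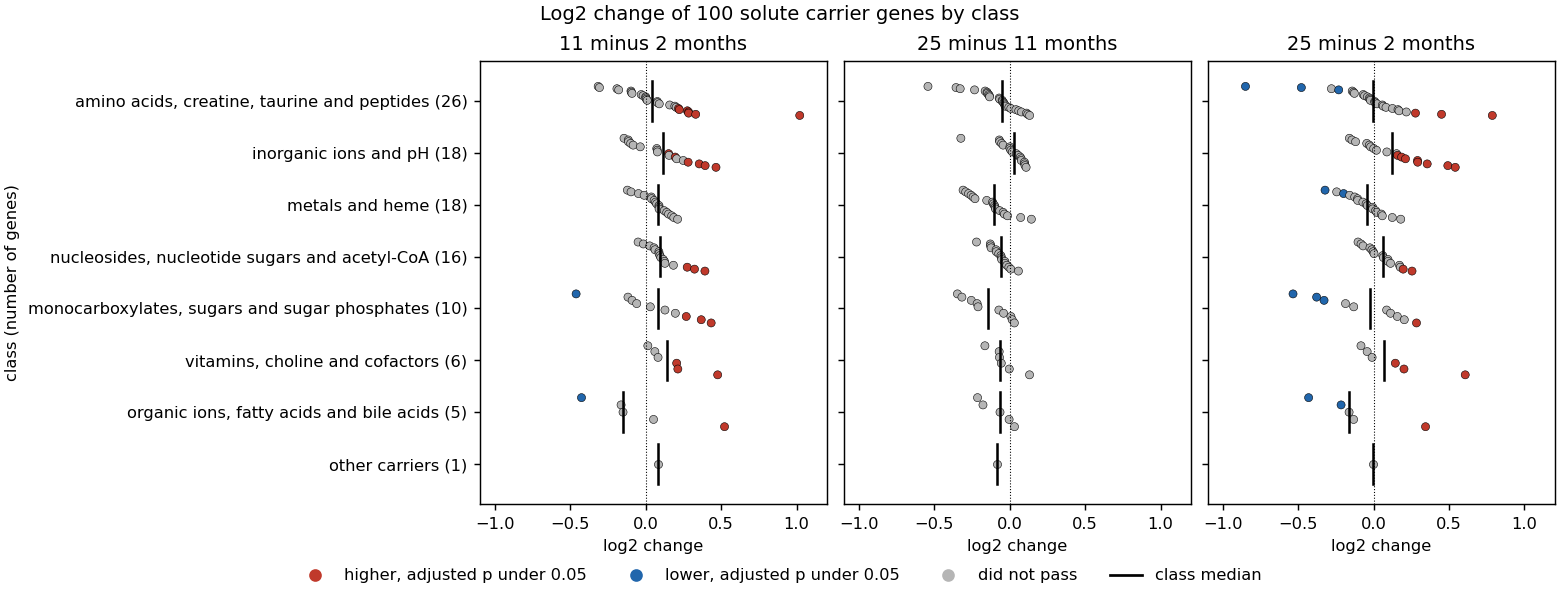
Log2 change of each of the 100 genes (points, horizontal axis) in the 3 comparisons. Genes are grouped by class, set by family number (vertical axis, number of genes in brackets). Red and blue points passed limma's test at an adjusted p under 0.05, and black bars are class medians. The right-most point for 11 minus 2 months is Slc15a5 at 1.02 and the left-most for 25 minus 2 months is Slc38a4 at -0.85; the middle panel has 0 coloured points.

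The changes were also set against the level of each gene. From 2 to 11 months the median change of all probesets went from 0.01 log2 units for levels of 6.5 to 7 up to 0.11 for levels of 9 to 9.5. Slc15a5, Slc27a1, Slc44a1 and Slc12a2 lay well above that median at their own level. From 11 to 25 months the same medians lay between -0.03 and -0.01 for levels of 6.5 and over.

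**Figure D2:**
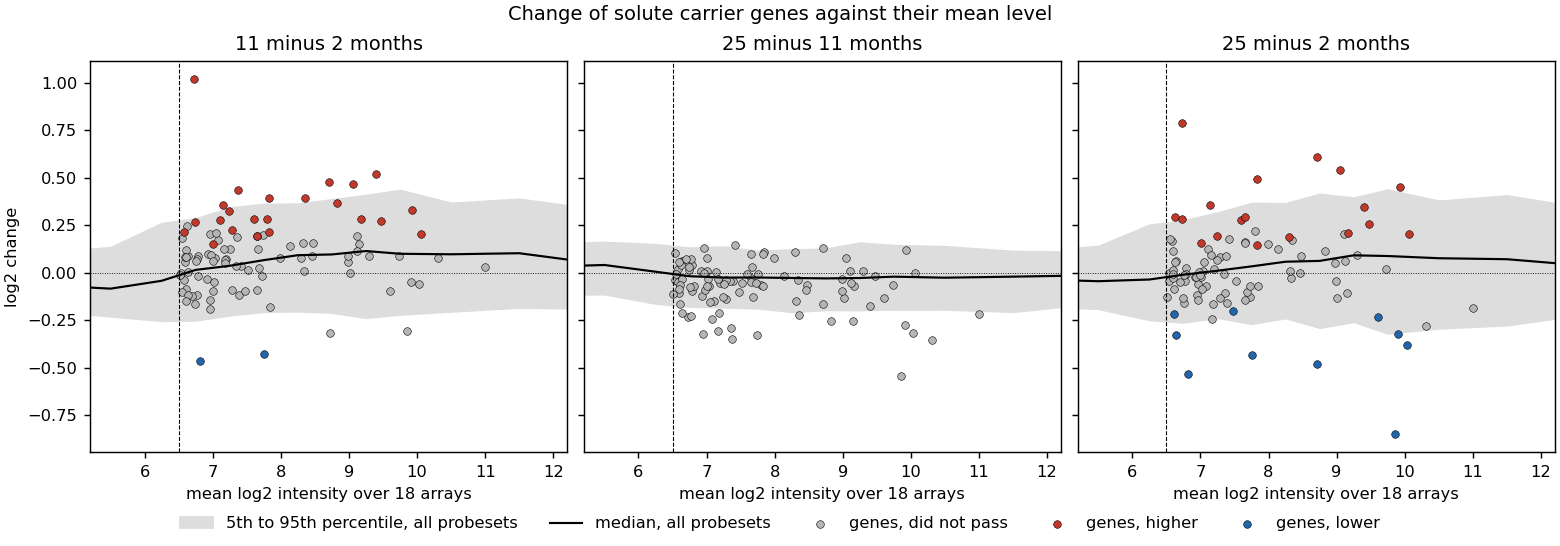
Log2 change (vertical axis) against mean log2 intensity over the 18 arrays (horizontal axis) for the 100 genes (points, coloured by call) in each comparison; the black line is the median of all probesets in bins of level, the grey band their 5th to 95th percentile, and the dashed line marks the level limit of 6.5. The carriers spread around the all-probeset median, which for 11 minus 2 months reached 0.11 at levels of 9 to 9.5.

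The start regions of 3 genes that carry the largest changes are shown because they differ in base composition. For 25 against 2 months Slc15a5 and Slc44a1 had the largest positive and Slc38a4 the largest negative change of the 100 genes. Each line gives the 250 bases before the first listed transcript start in RefSeq (build GRCm38.p6), 5′ to 3′ on the gene's strand, in lower case with motif matches in capitals.
Slc15a5: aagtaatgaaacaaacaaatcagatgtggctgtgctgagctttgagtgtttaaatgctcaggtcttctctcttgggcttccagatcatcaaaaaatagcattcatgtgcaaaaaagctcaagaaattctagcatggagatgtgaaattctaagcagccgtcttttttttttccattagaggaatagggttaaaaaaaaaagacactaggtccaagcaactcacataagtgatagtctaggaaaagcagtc
Slc44a1: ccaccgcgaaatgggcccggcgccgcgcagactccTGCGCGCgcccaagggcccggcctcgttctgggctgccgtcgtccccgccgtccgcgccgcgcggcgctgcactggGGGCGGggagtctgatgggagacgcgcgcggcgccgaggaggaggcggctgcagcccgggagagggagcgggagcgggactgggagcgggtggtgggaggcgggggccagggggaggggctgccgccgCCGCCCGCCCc
Slc38a4: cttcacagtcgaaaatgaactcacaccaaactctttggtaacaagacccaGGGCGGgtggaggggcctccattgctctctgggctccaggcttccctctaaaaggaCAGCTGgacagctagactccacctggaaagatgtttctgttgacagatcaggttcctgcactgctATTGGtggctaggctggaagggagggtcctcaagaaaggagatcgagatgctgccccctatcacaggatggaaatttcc

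These lie at chr6:138079917-138080166 on the minus strand, chr4:53440163-53440412 on the plus strand and chr15:97055957-97056206 on the minus strand. Motifs were searched on both strands. They were an E-box written CAGCTG, a further E-box written CACGTG, the TATA box written TATAAA, the GC box written GGGCGG, the CCAAT box, and the metal response element, written TGCACNC in one form and TGCGCNC in the other. The Slc15a5 window held 0 of them and had a GC content of 37.2%, where the Slc44a1 window had 81.2% and the Slc38a4 window 52.8%. In Slc44a1 there were 3 GC boxes, the last 2 of which overlap, and 1 metal response element; in Slc38a4 there were 1 GC box, 1 E-box of the first form and 1 CCAAT box. Over the first listed windows of all 27025 genes in the table, 32.9% held the GC box, 34.5% the CCAAT box, 21.3% either form of the metal element, 12.8% the first E-box, 6.05% the second E-box and 13.0% the TATA box. In the 5774 array genes at or above the level limit with an entry, the shares in the same order were 62.6%, 36.3%, 31.5%, 11.5%, 9.30% and 6.22%. A match describes the letters in the window only. Of the 100 genes, 82 had an entry, with a median GC content of 62.4%, against 60.8% for the 5774 array genes at or above the level limit that had an entry.

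The class of amino acids, creatine, taurine and peptides held 26 genes, Slc7a6os among them. From 2 to 11 months 7 rose and 0 fell, near the 26.5% called of probesets at or above the level limit. Between 25 and 2 months 3 were higher and 3 lower, where 26.1% of those probesets were called. Slc15a5, placed by its sequence in a family of peptide transporters, changed most, and it is a gene whose 2-month mean (6.12) lay under the level limit. Its signal ran from 5.89 to 6.41 log2 units at 2 months (median 6.08), from 6.99 to 7.37 at 11 months (median 7.10) and from 6.47 to 7.15 at 25 months (median 6.96). Every array of 11 and of 25 months lay above every array of 2 months. It was 2.03-fold higher at 11 than at 2 months (log2 change 1.02 ± 0.11 SE, adjusted p = 9.51e-06) and 1.73-fold higher at 25 than at 2 months (adjusted p = 7.18e-05).

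Slc6a6 encodes the taurine transporter TauT. At 2 months it ran from 9.58 to 9.78 (median 9.66), at 11 months from 9.81 to 10.12 (median 10.02) and at 25 months from 10.05 to 10.17 (median 10.13). No array of 2 months reached an array of either later age. The log2 change was 0.33 ± 0.05 (SE) from 2 to 11 months (adjusted p = 3.84e-04) and 0.45 ± 0.05 for 25 against 2 months (adjusted p = 8.50e-06), while 25 against 11 months gave 0.12 and did not pass (adjusted p = 0.458). The creatine transporter gene Slc6a8 had the values 9.72 ± 0.17, 9.62 ± 0.12 and 9.48 ± 0.14 at the 3 ages (SD, n = 6). Its only call, 1.17-fold lower at 25 than at 2 months (adjusted p = 0.0499), ended when any of 14 single arrays was left out.

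Slc38a4, an imprinted gene whose product is the amino acid transporter SNAT4, had the largest fall. It ran from 10.01 to 10.67 at 2 months (median 10.16), from 9.58 to 10.27 at 11 months (median 9.92) and from 9.09 to 9.56 at 25 months (median 9.41). All arrays of 25 months lay below all arrays of both other ages. Its signal was 1.80-fold lower at 25 than at 2 months (log2 change -0.85 ± 0.13 SE, adjusted p = 1.49e-04). The differences of -0.31 from 2 to 11 months (adjusted p = 0.102) and -0.54 from 11 to 25 months (adjusted p = 0.113) did not pass. Slc7a2, a carrier of arginine and other cationic amino acids, went from 8.98 ± 0.40 to 8.66 ± 0.16 and 8.50 ± 0.12 (SD, n = 6) and was 1.39-fold lower at 25 than at 2 months (adjusted p = 0.0150).

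The other rises of this class from 2 to 11 months were small. The glycine transporter gene Slc6a9 rose 1.21-fold with no overlap of the arrays (7.14 to 7.34 against 6.83 to 7.11, adjusted p = 0.00406) and was at 6.95 to 7.24 at 25 months. Slc7a6, which exchanges cationic for neutral amino acids, rose 1.17-fold (adjusted p = 0.0186), also with no overlap. Slc43a2, a carrier of large neutral amino acids, rose 1.22-fold (adjusted p = 0.00825) and was 1.21-fold higher at 25 than at 2 months (adjusted p = 0.00850). For the lysosomal histidine and peptide carrier Slc15a4 (1.22-fold, adjusted p = 0.0238) and the cationic amino acid transporter Slc7a1 (1.16-fold, adjusted p = 0.0356), the call ended without 3 and 7 single arrays respectively. Those for Slc15a4 were 2 months replicate 4 and 11 months replicates 5 and 6, with adjusted p up to 0.0618. For Slc7a1 they were 2 months replicates 2, 5 and 6 and 11 months replicates 2, 4, 5 and 6, with adjusted p up to 0.0807.

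Slc7a5, Slc3a2, Slc38a2, Slc1a5, Slc36a1 and Slc38a9, amino acid carriers named whether called or not, did not pass in any comparison. Other carriers of neutral amino acids, Slc43a2 and Slc7a6, were called as given above. Slc7a5, which imports leucine, was at 6.58, 6.67 and 6.64 log2 units at the 3 ages, and its partner chain Slc3a2 was at 8.26, 8.42 and 8.27. Glutamine carriers had the values 10.37, 10.45 and 10.09 for Slc38a2 and 7.71, 7.91 and 7.58 for Slc1a5. The lysosomal amino acid carriers Slc36a1 and Slc38a9 differed by at most 0.04 log2 units between any pair of ages. For Slc38a2 the arrays of an age spread widely (SD 0.42 at 2 and at 11 months, n = 6), so its differences had an SE of 0.18.

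**Figure D3:**
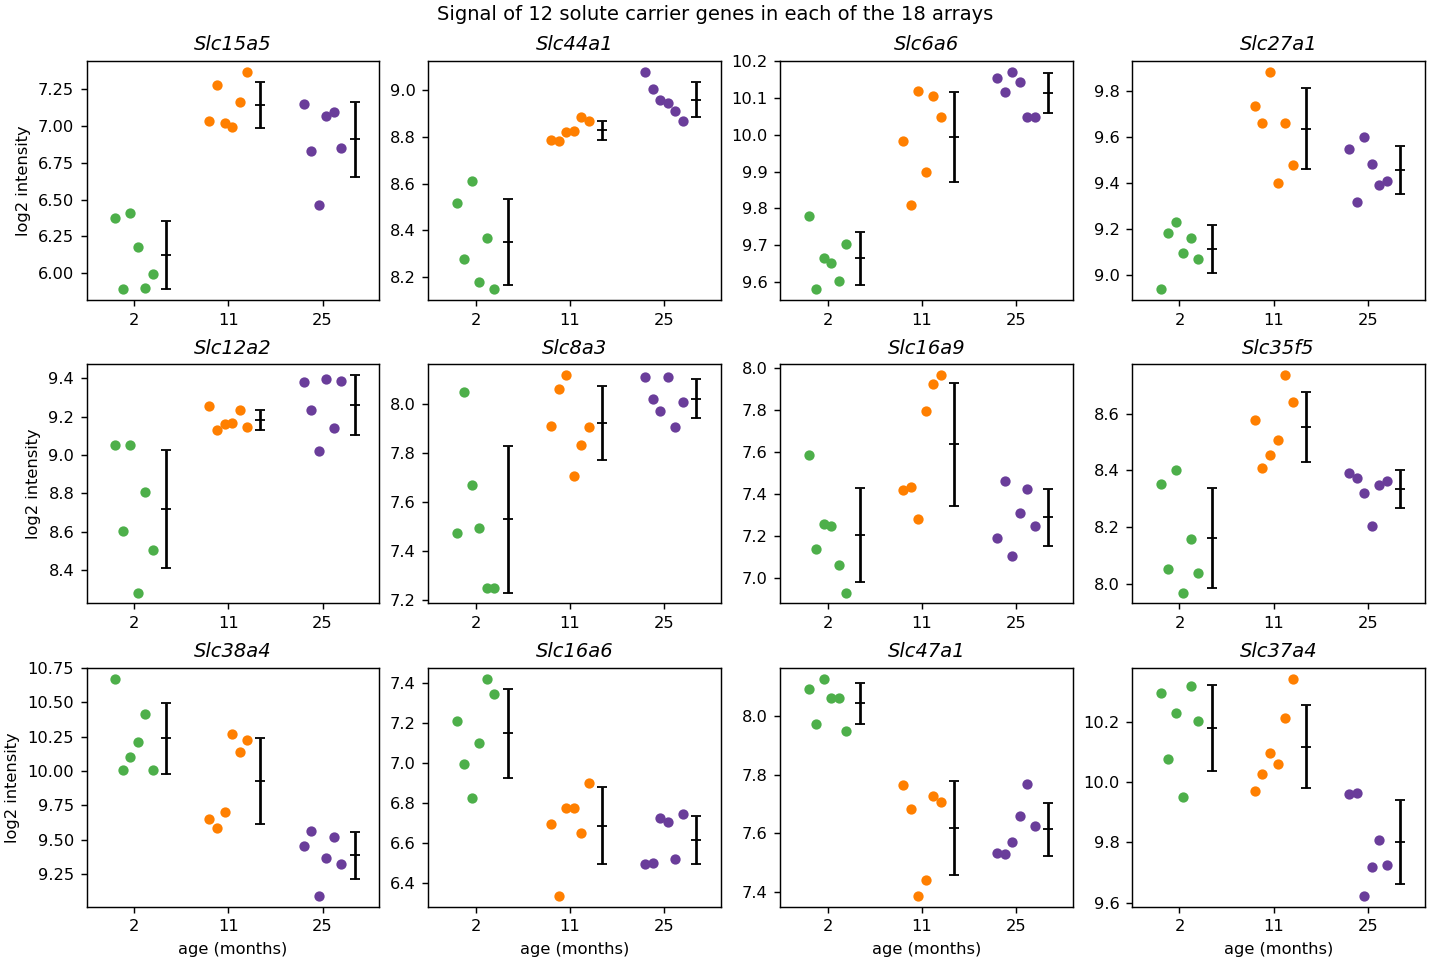
Log2 intensity (vertical axis) of 12 genes in each array at 2, 11 and 25 months (horizontal axis); points are the 6 arrays of an age and the bars beside them the mean ± SD, with each panel on its own scale that does not start at 0. The 2-month arrays of Slc15a5, Slc44a1, Slc6a6 and Slc27a1 sit below all other arrays of the same gene, and the 25-month arrays of Slc38a4 sit below all others of that gene.

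The class of inorganic ions and pH, which also holds Slc9a3r2 and Slc4a1ap, had 6 of 18 genes higher at 11 than at 2 months and 8 of 18 higher at 25 than at 2 months, with 0 lower in either. Of probesets at or above the level limit 19.9% and 17.1% were higher. Slc12a2 encodes NKCC1, which brings sodium, potassium and chloride into the cell. Its arrays ran from 8.28 to 9.05 at 2 months (median 8.71), from 9.13 to 9.26 at 11 months (median 9.17) and from 9.02 to 9.39 at 25 months (median 9.31). The arrays of 11 months lay above those of 2 months, and those of 25 months overlapped them at the edge. It was 1.38-fold higher at 11 months (adjusted p = 0.00505) and 1.46-fold higher at 25 months than at 2 months (adjusted p = 0.00131). Slc12a4, which lets potassium and chloride out of the cell, went from 7.49 ± 0.09 to 7.69 ± 0.08 and 7.79 ± 0.05 (SD, n = 6), with adjusted p of 0.00930 at 11 and 3.27e-04 at 25 months against 2 months. Its 11-month call ended under quantile normalization (adjusted p = 0.0878).

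The sodium-calcium exchanger of muscle and brain, Slc8a3, ran from 7.25 to 8.05 at 2 months (median 7.48), from 7.70 to 8.12 at 11 months (median 7.91) and from 7.91 to 8.11 at 25 months (median 8.01). A single 2-month array, at 8.05, overlapped the later ages at 25 months. The rise was 1.31-fold at 11 months (adjusted p = 0.0131) and 1.41-fold at 25 months (adjusted p = 0.00253), both against 2 months. Its relative Slc8a1 had a 2-month mean (6.44) under the level limit and was 1.22-fold higher at 25 than at 2 months (adjusted p = 0.0464), a call that ended without any of 13 single arrays, and a dimmer probeset of it did not pass (log2 change 0.13, adjusted p = 0.603).

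Slc9a7, a proton exchanger of the Golgi network, rose 1.28-fold from 2 to 11 months (adjusted p = 0.0103) and was 1.28-fold higher at 25 than at 2 months (adjusted p = 0.00924). Slc20a2, a phosphate importer, rose from 9.01 ± 0.12 to 9.29 ± 0.13 (SD, n = 6; adjusted p = 0.00415) and was at 9.22 ± 0.06 at 25 months (adjusted p = 0.0217 against 2 months); the 25-month call ended when replicate 5 or 6 of 2 months or replicate 1 or 6 of 25 months was left out (adjusted p up to 0.0560). The sodium-bicarbonate carrier gene Slc4a4 was 1.14-fold higher at 25 than at 2 months (adjusted p = 0.0234). That call was lost if replicate 5 or 6 of 2 months or replicate 1 or 4 of 25 months was dropped (adjusted p up to 0.0604). The adaptor gene Slc4a1ap was 1.11-fold higher at 11 and 1.12-fold higher at 25 than at 2 months, and these calls ended without any of 14 and 9 single arrays. The second phosphate importer of the list, Slc20a1, did not pass (6.82, 6.71 and 6.78).

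Genes for metal and heme carriers showed no call in the first months: 0 of 18 passed from 2 to 11 months, with 4 at an unadjusted p under 0.05, where 26.5% and 43.5% of probesets at or above the level limit did. At 25 against 2 months 0 were higher and 2 lower, where 17.1% and 8.97% of those probesets were. Slc41a3, whose product carries magnesium, ran from 9.91 to 10.25 at 2 months (median 10.01), from 9.85 to 10.13 at 11 months (median 9.97) and from 9.60 to 9.87 at 25 months (median 9.65). The arrays of 25 months lay below those of 2 months and overlapped those of 11 months. It was 1.25-fold lower at 25 than at 2 months (adjusted p = 0.00198), and the change of -0.27 from 11 to 25 months did not pass (adjusted p = 0.113). Slc39a13, a zinc carrier of intracellular vesicles, was 1.15-fold lower at 25 than at 2 months (adjusted p = 0.0359), which ended without any of 8 single arrays (adjusted p up to 0.0911). The zinc exporter Slc30a1, the zinc importers Slc39a1 and Slc39a14, the copper importer Slc31a1 and the magnesium carrier Slc41a1 did not pass in any comparison.

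The class of monocarboxylates, sugars and sugar phosphates was set by family number and also holds carriers of other substrates. Of its 10 genes 3 rose and 1 fell from 2 to 11 months. At 25 against 2 months 1 was higher and 3 lower. Of probesets at or above the level limit 26.5% and 26.1% were called in these comparisons. The genes that rose were Slc16a9, Slc16a10 and Slc5a6, and the higher gene at 25 months was Slc5a6. Slc16a10 and Slc5a6 carry other substrates, as given below. The lactate carriers of muscle did not pass: Slc16a1 was at 8.98 ± 0.16, 9.17 ± 0.20 and 9.18 ± 0.14, and Slc16a3 at 11.05 ± 0.15, 11.08 ± 0.20 and 10.87 ± 0.19 at the 3 ages (SD, n = 6). The unadjusted 95% interval of the difference between 11 and 2 months was -0.17 to 0.23 log2 units for Slc16a3 and 0.01 to 0.38 for Slc16a1. For 25 against 11 months the intervals were -0.42 to -0.01 for Slc16a3 and -0.18 to 0.20 for Slc16a1. For 25 against 2 months they were -0.39 to 0.02 for Slc16a3 and 0.01 to 0.39 for Slc16a1. Slc16a6, a family member that carries ketone bodies, fell from 6.82 to 7.42 (median 7.15) at 2 months to 6.33 to 6.90 (median 6.73) at 11 months, and lay at 6.49 to 6.74 (median 6.61) at 25 months. The arrays of 25 months did not reach those of 2 months. The falls were 1.38-fold (adjusted p = 0.00306) and 1.45-fold (adjusted p = 6.93e-04) against 2 months.

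Slc16a9 rose 1.35-fold from 2 to 11 months (7.20 ± 0.22 to 7.64 ± 0.29, SD, n = 6; adjusted p = 0.0150), and at 25 months it was at 7.29 ± 0.14, which did not differ from 2 months by the test (adjusted p = 0.670). At 11 months replicates 4 to 6 lay at 7.79 to 7.97 and replicates 1 to 3 at 7.28 to 7.43. The same 3 arrays were the highest of that age for Slc16a10 (9.17 to 9.27 against 8.80 to 8.92) and Slc16a3 (11.15 to 11.38 against 10.80 to 11.05). Slc16a10, a carrier of aromatic amino acids, rose 1.29-fold (adjusted p = 0.0371), a call that ended on dropping replicate 2, 4, 5 or 6 of 2 months or replicate 4, 5 or 6 of 11 months (adjusted p up to 0.0888). Slc5a6, the carrier of biotin and pantothenate, had tight groups: at most 6.59 at 2 months (median 6.56), 6.76 to 6.85 at 11 months (median 6.82) and 6.76 to 6.97 at 25 months (median 6.81). Both later ages lay wholly above the first, with log2 changes of 0.27 (adjusted p = 2.87e-04) and 0.28 (adjusted p = 1.01e-04).

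Slc37a4 passes glucose 6-phosphate into the endoplasmic reticulum. Its arrays ran from 9.95 to 10.32 at 2 months (median 10.22), from 9.97 to 10.34 at 11 months (median 10.08) and from 9.62 to 9.96 at 25 months (median 9.77). The 25-month arrays lay below all arrays of 11 months and overlapped those of 2 months at the edge. It was 1.30-fold lower at 25 than at 2 months (adjusted p = 0.00169), and the difference of -0.32 from 11 months did not pass (adjusted p = 0.112). The inositol carrier gene Slc5a3 was 1.26-fold lower at 25 than at 2 months (adjusted p = 0.0277), which ended on dropping replicate 2 or 4 of 2 months or replicate 2, 4 or 6 of 25 months (adjusted p up to 0.0681).

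The class of fatty acids, organic ions and bile acids held 5 genes. Of these 1 rose and 1 fell from 2 to 11 months, and 1 was higher and 2 lower at 25 than at 2 months, where 26.5% and 26.1% of probesets at or above the level limit were called. Slc27a1 encodes FATP1, a protein of fatty acid uptake. It ran from 8.94 to 9.23 at 2 months (median 9.13), from 9.40 to 9.88 at 11 months (median 9.66) and from 9.32 to 9.60 at 25 months (median 9.45). Arrays of both later ages lay above those of 2 months. The rise was 1.44-fold at 11 months (log2 change 0.52 ± 0.07 SE, adjusted p = 9.35e-05) and 1.27-fold at 25 months (adjusted p = 0.00255), both against 2 months. Slc27a4, another protein of fatty acid uptake, was at 6.73 ± 0.10, 6.58 ± 0.11 and 6.52 ± 0.13 (SD, n = 6) and was 1.16-fold lower at 25 than at 2 months (adjusted p = 0.0268); the call ended on dropping replicate 2, 4 or 5 of 2 months or replicate 1, 2 or 3 of 25 months (adjusted p up to 0.0741).

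Slc47a1, which expels organic cations in exchange for protons, fell from 7.95 to 8.13 at 2 months (median 8.06) to 7.39 to 7.76 at 11 months (median 7.69). At 25 months it lay at 7.53 to 7.77 (median 7.60). No array of a later age reached the 2-month arrays, and the changes were -0.43 at both ages (adjusted p = 2.14e-04 at 11 and 1.21e-04 at 25 months). The carnitine transporter gene Slc22a5 did not pass in any comparison (7.22, 7.27 and 7.05 at the 3 ages).

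For vitamins, choline and cofactors 3 of 6 genes rose from 2 to 11 months and 3 were higher at 25 than at 2 months, with 0 lower in either. The shares called higher among probesets at or above the level limit were 19.9% and 17.1%. Slc44a1, a choline carrier, had the smallest adjusted p of the 100 genes for 25 against 2 months. Its arrays ran from 8.15 to 8.61 at 2 months (median 8.32), from 8.78 to 8.88 at 11 months (median 8.82) and from 8.87 to 9.08 at 25 months (median 8.95). The 2-month arrays lay below all others, and the later ages overlapped only at the edge. It was 1.39-fold higher at 11 months (adjusted p = 8.95e-05) and 1.52-fold higher at 25 months (log2 change 0.61 ± 0.07 SE, adjusted p = 2.90e-06) than at 2 months. The related Slc44a2 was 1.15-fold higher at 11 (adjusted p = 0.0101) and at 25 months (adjusted p = 0.0103). Slc23a2, which imports vitamin C, rose 1.16-fold from 2 to 11 months with no overlap of arrays (adjusted p = 0.00483) and was 1.10-fold higher at 25 than at 2 months, a call that ended without any of 12 single arrays. The lysosomal carrier gene Slc46a3 did not pass (7.53, 7.54 and 7.48).

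The class of nucleosides, nucleotide sugars and acetyl-CoA had 3 of 16 genes higher at 11 than at 2 months, near the 19.9% of probesets at or above the level limit, and all from the large family 35, whose known members bring nucleotide sugars into the Golgi and endoplasmic reticulum. Slc35f5 ran from 7.97 to 8.40 at 2 months (median 8.11), from 8.41 to 8.74 at 11 months (median 8.54) and from 8.21 to 8.39 at 25 months (median 8.36). The 11-month arrays lay above all arrays of both other ages. It rose 1.31-fold from 2 to 11 months (adjusted p = 0.00118), and the difference of -0.22 from 11 to 25 months did not pass (adjusted p = 0.279).

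Slc35f6 rose 1.25-fold (adjusted p = 0.00118) and was 1.15-fold higher at 25 than at 2 months (adjusted p = 0.0277). The 25-month call of Slc35f6 ended on dropping replicate 2, 5 or 6 of 2 months or replicate 1, 2 or 4 of 25 months (adjusted p up to 0.0713). Slc35e1 was 1.21-fold higher at 11 (adjusted p = 0.00203) and 1.19-fold higher at 25 than at 2 months (adjusted p = 0.00267). The nucleoside carrier Slc29a1 (8.43, 8.52 and 8.43) and the acetyl-CoA carrier Slc33a1 (6.43, 6.62 and 6.61) did not pass. The 1 gene outside these classes, Slc17a5, a lysosomal carrier of sialic acid, did not pass either.

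For aged against adult muscle, the comparison with 0 calls, the smallest adjusted p belonged to Slc48a1, a heme carrier. Its arrays ran from 9.17 to 9.43 at 11 months and from 8.94 to 9.08 at 25 months, with no overlap, and the log2 difference was -0.26 ± 0.06 (SE; adjusted p = 0.0779). With only these 2 ages in the fit the adjusted p was 0.0451, with array weights 0.0123, and with dim probesets left out 0.0497. Without 2 months replicate 2 it was 0.0489, and no other fit with 1 array left out called the gene. With quantile normalization, the replicate number as a block or the array signal range as a covariate, 0 of the 100 genes passed. The other genes whose arrays did not overlap were Slc38a4, Slc37a4, Slc26a6 and Slc35f5, all lower at 25 months, and Slc4a4, higher. That is 5 lower and 1 higher of 100, where 0.778% and 0.34% of all probesets, and 1.25% and 0.284% of those at or above the level limit, were so separated. Slc26a6, an anion exchanger, had a log2 difference of -0.32 (adjusted p = 0.144) and Slc39a3, a zinc importer, of -0.29 (adjusted p = 0.138). The one-way test with Tukey called Slc22a5, Slc26a6, Slc35f5, Slc37a4, Slc38a4, Slc39a3, Slc41a3 and Slc48a1; with array weights limma called 5 of these, Slc26a6, Slc37a4, Slc38a4, Slc41a3 and Slc48a1. Slc48a1, Slc26a6 and Slc39a3 were singled out after their values were seen.

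**Figure D4:**
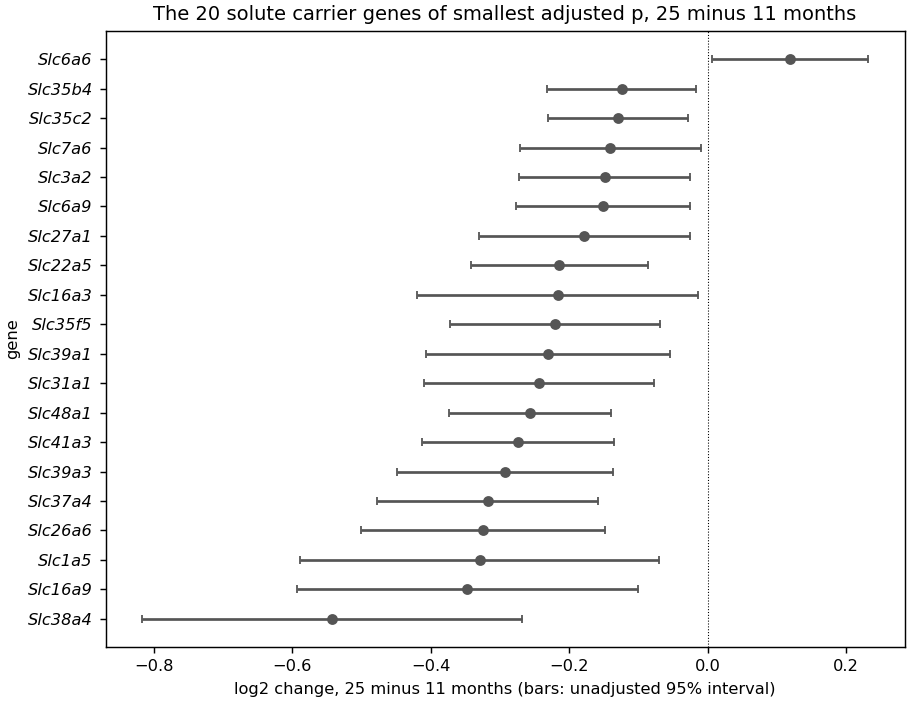
Log2 change from 11 to 25 months (horizontal axis) with its unadjusted 95% interval (bars) for the 20 genes of smallest adjusted p (vertical axis). Slc38a4 lies at -0.54 and Slc48a1 at -0.26; 0 of the 20 passed limma's test after adjustment over all probesets, and Slc6a6 is the 1 gene of the plot with a value above 0.

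Arrays of 11 and 2 months did not overlap for 10 rising and 1 falling carrier, against 4.05% and 2.37% of all probesets and 6.84% and 2.21% of those at or above the limit. For 25 against 2 months 8 were wholly higher and 4 wholly lower, against 4.29% and 2.93% of all probesets and 6.99% and 4.05% at or above the limit. Of the 25 calls at 11 against 2 months 11 did not pass when the array signal range was a covariate: Slc12a2, Slc15a4, Slc16a9, Slc16a10, Slc43a2, Slc44a2, Slc4a1ap, Slc7a1, Slc7a6, Slc8a3 and Slc9a7. Their log2 changes in that fit stayed near the main values for some (0.23 against 0.22 for Slc7a1, 0.36 against 0.39 for Slc8a3, 0.37 against 0.43 for Slc16a9) and were smaller for others (0.15 against 0.35 for Slc9a7, 0.13 against 0.37 for Slc16a10, 0.05 against 0.15 for Slc4a1ap). At 25 against 2 months 7 of the 28 did not: Slc23a2, Slc27a4, Slc35f6, Slc39a13, Slc4a1ap, Slc6a8 and Slc8a1. Quantile normalization ended the calls of Slc12a4, Slc15a4, Slc16a10, Slc44a2 and Slc4a1ap at 11 months and of Slc20a2, Slc23a2 and Slc4a4 at 25 months, against 2 months. The signal range moved with age in these arrays, and its part in the result was not tested.

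Genes that work with these carriers were followed as a list of 40, of which 34 were measured. From 2 to 11 months 6 rose and 2 fell, and at 25 against 2 months 4 were higher and 3 lower. Of all probesets 19.1% and 17.4% were called in these comparisons, and of those at or above the level limit 26.5% and 26.1%. By direction, 19.9% of the latter were higher and 6.6% lower at 11 months. At 25 months the shares were 17.1% and 8.97%. Beside Slc12a2, the kinase gene Oxsr1, whose product switches on that cotransporter, rose from 9.23 to 9.61 (1.29-fold, adjusted p = 4.93e-04) and was at 9.57 at 25 months. The related kinase gene Stk39 was at 6.27, 6.19 and 6.14 and did not pass. Fxyd6, of a family that tunes the sodium pump, rose 1.76-fold (9.23 to 10.04, adjusted p = 2.38e-04), and the pump's own subunit gene Atp1b2 fell 1.31-fold (10.82 to 10.44, adjusted p = 0.00396). Embigin (Emb), which escorts lactate carriers to the membrane, was dim (5.23, 5.55 and 5.86) and was higher at both later ages (adjusted p = 0.0455 and 4.45e-04). The metallothionein Mt1 fell 1.32-fold from 2 to 11 months (adjusted p = 0.0325), while Mt2 and Mtf1 of the same list did not pass (adjusted p = 0.363 and 0.637). Atf4, a regulator of amino acid carriers, rose 1.15-fold (adjusted p = 0.0429), as did Fxyd1 (1.12-fold) and Rragc (1.18-fold). At 25 months Atf4 did not differ from 2 months by the test (adjusted p = 0.475). Asns, Chac1, Trib3 and Ddit3 of the list did not pass in any comparison. Car14 and Gatm were lower at 25 than at 2 months.

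Some markers of other cells were called beside these results. Against 2 months, 19.1% of all probesets were called at 11 months and 17.4% at 25 months. Of those at or above the level limit 26.5% and 26.1% were called. In lists as short as the ones below, 1 call against 2 months is near such shares. From 11 to 25 months the shares were 0.15% and 0.234%. Of 7 adipocyte markers measured 3 rose from 2 to 11 months (Adipoq, Cidec and Lep) and 0 fell. The summed intensity of the 7 was 564 to 828 at 2 months, 584 to 1287 at 11 months and 554 to 918 at 25 months. Of 7 fibroblast markers 2 fell (Col1a1 and Col3a1) and 1 rose (Dcn) from 2 to 11 months, and 5 of the 7 had a change above 0. At 25 against 2 months 4 were lower (Col1a1, Col3a1, Dpt and Pdgfra), and Dpt fell from 11 to 25 months. The sums were 7310 to 10263, 5829 to 7252 and 4732 to 6088, and bright genes weigh most in them. Of 7 endothelial markers 1 rose and 1 fell from 2 to 11 months and 4 were lower at 25 than at 2 months (2305 to 2516, 2206 to 2581 and 2056 to 2267). Macrophage markers had 1 of 7 higher in each comparison with 2 months, and Schwann markers 1 of 4 lower. Keratinocyte and erythroid markers had 0 calls, but the keratinocyte sum reached 1706 at 11 months against at most 385 at 2 months. Array intensities have no 0, and 2 of the 7 adipocyte, 2 of the 7 macrophage, 2 of the 4 Schwann, 2 of the 3 erythroid and 5 of the 6 keratinocyte markers averaged under the level limit. The part of these cells in the carrier results was not tested.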

How the data were processed

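Gene expression in gastrocnemius was measured on Affymetrix whole-transcript arrays, 6 for each age of 2, 11 and 25 months. The authors deposited linear intensity values, 1 per probeset and array, for 15300 probesets. Affymetrix Expression Console 1.2.1, RMA and genome build mm8 are named in the submitters' processing notes, and GeneSpring GX 14.9 in the series text; no filter is given in the sources used here.

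Log2 was taken before all tests. Of the probesets 13592 had 1 gene symbol, 941 several and 767 none; all 100 members matched RefSeq by Entrez identifier with 0 symbols changed. Limma 3.58.1 in R 4.3.3 fitted 1 mean per age over the 18 arrays, with Benjamini-Hochberg adjustment over all probesets in each comparison and a threshold of 0.05. Errors are SE from that fit or SD over 6 arrays. The number of arrays limits the precision. P-values set the difference between ages against the spread between these samples. The fit was tested on simulated data. Python 3.11.15 (pandas 2.3.3, numpy 2.4.6) made the tables, and matplotlib 3.10.9 the figures.

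The members, classes and lists were chosen with earlier results of these data known. Classes follow the family number. Named genes were the 10 largest rises and falls called per comparison, the 2 of smallest adjusted p per class and direction, 30 fixed members and every member called. Alternatives were the one-way test with Tukey, quantile normalization, median centring, dim probesets left out, a trended and robust variance, array weights, a replicate block, 2 ages only, 1 probeset per gene, mean probesets, a threshold of 0.01, level limits of 6.0 and 7.5, the signal range as covariate, and arrays left out.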

Additional observations from a re-analysis of the deposited data

Results flagged for a closer look

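In 5 of 159 sets of 6 arrays (53 named genes at 3 ages), 1 array stood apart, its distance to the nearest array exceeding 0.625 of the whole range of the set. Chance gives about 1 in 20 sets. Slc22a5, the carnitine carrier, was at 7.41 in 2 months replicate 5 with the next array at 7.22 (0.683 of the range). Slc3a2, the partner chain of amino acid exchangers, was at 8.45 in 25 months replicate 1 with the next at 8.28 (0.654). The magnesium carrier gene Slc41a1 was at 8.73 in 2 months replicate 1, below the next at 8.94 (0.634). Slc44a2 was at 10.01 in 25 months replicate 5, below the next at 10.12 (0.775). Slc7a1 was at 6.93 in 11 months replicate 4, above the next at 6.69 (0.628).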

How the results depend on the processing

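Of the 25 calls at 11 against 2 months 13 held under all 29 refits, and of the 28 at 25 against 2 months 17; 0 changed direction. For 11 against 2 months the count of 25 became 14 with the signal range as a covariate, 16 at a threshold of 0.01, 15 of 45 genes with a level limit of 7.5, and 21 to 30 with 1 array left out. For 25 against 2 months the count of 28 became 16 at a threshold of 0.01, 18 of 45 genes with the limit of 7.5, and 19 to 31 with 1 array left out. For 25 against 11 months the count of 0 became 1 with these 2 ages only, 1 with dim probesets left out, 5 with array weights, 8 by the one-way test with Tukey, and 0 to 1 with 1 array left out. The moderated F count of 30 ranged from 24 to 36 with 1 array left out. With the replicate number as a block the counts were 22, 0 and 26. Same-numbered arrays of different ages correlated with r of -0.33 to 0.42 in their deviations (7 of 18 pairs over 0.1). Of the 18, 4 correlated best with their own number. The labels name no batch, so whether same-numbered arrays share more than a number cannot be told from these values. The cause of these shifts was not tested. Signal over background is not given in the deposited values, so no detection limit is stated.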
